A study of Mus musculus with 12 samples.

Results

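A set of 10 genes, covering the bone morphogenetic protein (BMP) pathway and its best-known targets, was followed in cultured mouse neural progenitors in which lamin B1, a protein of the nuclear lamina, had been deleted or left intact. They were chosen by symbol: the ligand Bmp4, the receptors Bmpr1a and Bmpr1b, the inhibitors Bambi, Smad6 and Smad7, and the inhibitor of differentiation genes Id1, Id2, Id3 and Id4. All 10 were present, among 43309 features in the day 5 tables and 42802 in the day 9 tables. The cKO cells carried LaminB1fl/fl and the Ai3 reporter, the WT cells carried LaminB1+/+ and Ai3, and both were of the C57BL/6 strain. Both genotypes received a lentivirus expressing Cre from a Sox2 promoter, so both were exposed to virus and Cre, with Cre driven by a promoter of neural stem and progenitor cells. Cells were grown in medium with EGF and FGF-2 at 10 ng/ml each, sorted for EYFP, which Ai3 makes after Cre has acted, and collected at 5 or 9 days. The groups were cKO and WT at day 5 and cKO and WT at day 9, with 3 libraries each. The labels do not say whether replicates were separate cultures or animals, so the p-values measure the spread between these libraries, which may be technical.

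BMP ligands bind paired type I and type II receptors, and the type I receptor then phosphorylates SMAD1, SMAD5 or SMAD9, which enter the nucleus with SMAD4. The ID genes are among the most direct targets of these SMADs. ID proteins lack a DNA-binding region and hold E proteins away from their partners among the basic helix-loop-helix (bHLH) factors. In neural progenitors, BMP signalling is known for favouring astrocyte fate or quiescence and for opposing neuron and oligodendrocyte formation, depending on the stage and on the other growth factors present.

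Library totals were 26720620 to 32127716 expected counts at day 5. At day 9 they were 13315399, 22988516 and 13709810 in cKO replicates 1, 2 and 3, against 24413023, 24662871 and 24501843 in WT. At day 9 a group of 10 structural RNA features took 69.7%, 0.350% and 68.4% of the counts in cKO, against 15.7%, 34.6% and 17.7% in WT. Thus cKO replicates 1 and 3 stood apart from the rest, with 4030183 and 4335813 counts left for other features. At day 5 the expression deviations of cKO replicate 2 and WT replicate 1 from their group means went together (r = 0.757 across genes, which are not independent). Of these, cKO replicate 2 had 14.1% of its counts on the structural features, against 0.0739% to 0.506% in the other 5 libraries of day 5, and 59.3% of its TPM on protein-coding genes, against 81.7% to 86.0%. Lmnb1, the targeted gene, was at 37.8, 40.7 and 45.0 CPM in cKO against 288, 255 and 247 in WT at day 5. At day 9 it was at 34.3, 32.8 and 39.4 CPM in cKO against 156, 210 and 188 in WT. CPM is counts per 1000000 after TMM scaling. The fall of Lmnb1 passed the edgeR quasi-likelihood test at both days (Benjamini-Hochberg adjusted p = 0.0493 and 1.85e-05), but at day 5 leaving out any 1 library ended the call (adjusted p from 0.130 to 0.582), although the log2 fold changes in those fits, from -2.76 to -2.60, were close to the -2.68 of all 6 libraries. All 7 neural progenitor markers examined were detected in each group. So were all 8 astrocyte, 9 oligodendrocyte lineage, 8 neuron and 7 choroid plexus and ependymal markers. Detection alone therefore does not tell these cell types apart.

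At day 9 the pathway genes moved in both directions in cKO cells. Bmp4, Id4, Bmpr1b, Smad7, Bmpr1a and Id2 rose, Id3 fell, and Id1 and Bambi did not pass the test. Smad6 had too few counts to be tested. Of the 9 genes tested, 7 were called (6 higher, 1 lower) at a Benjamini-Hochberg adjusted p under 0.05. That threshold was also passed by 43.6% of all 14617 genes tested at day 9, 21% higher and 22.6% lower. The median log2 fold change, cKO minus WT, was 0.89 over the 9 genes and 0.01 over all genes tested. Leaving out cKO replicates 1 and 3 leaves cKO replicate 2 as the only cKO library, with the spread taken from the 3 WT libraries alone and the lone library assumed to vary like them. Calls from that fit say nothing of the spread between cKO libraries. Its log2 fold changes were 6.65 for Bmp4, 2.83 for Id4, 1.85 for Bmpr1b, 1.01 for Id2, 1.003 for Bmpr1a and 0.81 for Smad7. They were 0.10 for Id1, -0.53 for Id3 and -1.65 for Bambi. In limma on log2(TPM + 1), with TPM rescaled without the 10 structural features, the median of all genes was at -0.69 and 1 of the 9, Bmp4, was called. There Id4 had a log2 fold change of 1.60 (Benjamini-Hochberg adjusted p = 0.103). That rescaled TPM still holds other features that are not protein-coding: protein-coding genes took 13.3%, 80.3% and 13.5% of the deposited TPM in cKO against 65.8%, 49.3% and 64.2% in WT, while the 10 features took 44.1% and 42.7% in cKO replicates 1 and 3. On coding TPM, rescaled over protein-coding genes only, the median of all genes was at 0.19 and the same 7 genes were called in the same directions (limma, Benjamini-Hochberg), with Id4 at 2.68 (adjusted p = 0.000247).

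At day 5 none of the 8 tested genes passed, and the normalised values of all 10 genes overlapped between cKO and WT. The background was near 0 too: 0.00673% of the 14849 genes tested were called, namely Lmnb1 alone, with 0% higher and 0.00673% lower, and 89 genes had an unadjusted p under 0.05. DESeq2 called 8 genes at day 5, none of them among the 10. The log2 fold changes of the 8 genes ran from -0.36 (Id1) to 0.36 (Bmpr1a), with a median of 0.01, equal to that of all genes. Of the smallest, those of Id2, Id4 and Smad7 lay between -0.03 and 0.03 and changed sign in some of the other settings. These intervals were wide: the SE of Bmpr1a was 0.56 and that of Id4 0.27, so a modest change at day 5 was not detectable with 3 libraries a group.

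**Figure D1:**
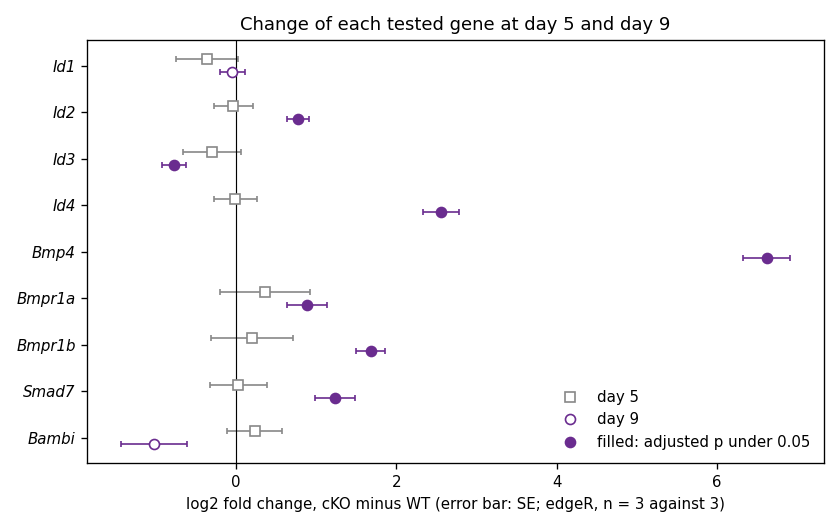
Log2 fold change of each tested gene, cKO minus WT, at day 5 (squares) and day 9 (circles), from edgeR on 3 against 3 libraries. Error bars are SE derived from the F statistic of the test, which for Bmp4 is narrower than its counting error. Filled symbols passed an adjusted p under 0.05. The day 5 values lie near 0, and at day 9 Bmp4 stands at 6.62 and Id4 at 2.56 while Id3 lies at -0.77.

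Bmp4, a secreted ligand, was close to absent in every group but one. Its gene lies on the reverse strand of chromosome 14, from 46383520 to 46390669 (GRCm38). At day 9 the cKO libraries held 43, 307 and 58 counts of Bmp4, which is 6.70, 7.72 and 8.16 CPM, against 3, 2 and 2 counts in WT, which is 0.0848, 0.0717 and 0.0582 CPM. Every cKO library was far above every WT library, and the cKO values lay close together despite the differing structural RNA shares. The fitted rise was 98.5-fold (a log2 fold change of 6.62 ± 0.29, SE, with 3 libraries a group; edgeR quasi-likelihood, Benjamini-Hochberg adjusted p = 6.58e-06). The exact size is loosely fixed, since WT had 7 counts in all. The ratio of summed counts per effective library was 107, with a 95% Poisson interval of 51.4 to 267 for counting error only. That interval is wider than the SE implies. The SE was derived from the F statistic of the test and understates the uncertainty here. The call held without any 1 library, and cKO replicate 2 alone against the 3 WT libraries gave a log2 fold change of 6.65.

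At day 5, Bmp4 had 0, 1 and 1 counts in cKO against 3, 0 and 1 in WT, which is at or under a floor of 3 counts per library, so no fold is given. The change at day 9 minus the change at day 5 was 7.32 ± 1.20 (edgeR, Benjamini-Hochberg adjusted p = 0.00344). Its size rests on those few day 5 counts: without day 5 WT replicate 1, which held 3 of them, it was 6.17 (adjusted p = 0.130).

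The 300 bases around the RefSeq start of Bmp4 (250 before and 50 after) are given because this gene had the largest change of the 10. Capitals mark matches on either strand to the SMAD box GTCT (AGAC on the other strand) or to the E-box CANNTG, the kind of site that E proteins and their bHLH partners bind. The window is chr14:46390620-46390919, reverse strand, GRCm38.p6.
Bmp4: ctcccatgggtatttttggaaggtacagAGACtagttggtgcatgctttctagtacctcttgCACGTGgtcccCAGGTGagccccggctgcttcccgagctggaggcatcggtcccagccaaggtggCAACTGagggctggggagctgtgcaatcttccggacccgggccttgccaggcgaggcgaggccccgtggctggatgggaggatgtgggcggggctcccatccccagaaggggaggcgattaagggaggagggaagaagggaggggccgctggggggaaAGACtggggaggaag
The window held 2 SMAD boxes and 3 E-boxes, none overlapping, and no copy of GGCGCC, a GC-rich element that BMP-activated SMADs bind in ID gene promoters. Over 32851 RefSeq promoter windows of this length, 88.0% held GTCT on either strand, 72.3% held CANNTG and 11.9% held GGCGCC. Matches to such short motifs are descriptions and not binding sites.

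Of 13 other ligand genes of the BMP family, 3 had enough counts to be tested at day 9. Of these, 1 was higher and 1 lower, beside 43.6% called of all genes, and the median log2 fold change was -0.42. Bmp7 fell, to 19.6 ± 1.31 CPM in cKO against 102 ± 19.8 in WT (mean ± SD, n = 3; log2 fold change -2.38 ± 0.15, edgeR, Benjamini-Hochberg adjusted p = 2.46e-05). Gdf6 was at 0.860 ± 0.252 CPM in cKO and 0.335 ± 0.0830 in WT, and its call (edgeR, Benjamini-Hochberg adjusted p = 0.0395) ended in 14 of 17 other settings.

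The type I receptors Bmpr1a and Bmpr1b both rose at day 9. Bmpr1a, on chromosome 14 from 34410734 to 34503341 (reverse strand), was at 83.7, 87.1 and 64.6 CPM in cKO against 55.8, 42.8 and 28.7 in WT. The groups did not overlap, with cKO replicate 3 the nearest to WT. The rise was 1.85-fold (log2 fold change 0.89 ± 0.25, edgeR, Benjamini-Hochberg adjusted p = 0.0305). This call ended without cKO replicate 1, cKO replicate 2 or WT replicate 2 (edgeR adjusted p from 0.0912 to 0.0975), where the log2 fold changes were 0.83, 0.79 and 0.89. With cKO replicate 2 alone it was 1.003.

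Bmpr1b, on chromosome 3 from 141837136 to 142169425 (reverse strand), was at 32.1, 42.0 and 35.0 CPM in cKO against 13.6, 11.2 and 9.16 in WT at day 9. The groups were well apart, with cKO replicate 2 the highest library. The rise was 3.21-fold (log2 fold change 1.69 ± 0.18, edgeR, Benjamini-Hochberg adjusted p = 0.000290), and it held without any 1 library. Within each library the TPM of Bmpr1b over that of Bmpr1a, a ratio that library scaling cannot change, was 0.363, 0.474 and 0.523 in cKO against 0.247, 0.233 and 0.286 in WT. The means were 0.453 ± 0.0823 and 0.255 ± 0.0275, without overlap (two-sided exact permutation p = 0.1, the smallest that 3 against 3 allows). So Bmpr1b went up by more than Bmpr1a in every cKO library, while at day 5 the ratio was 0.177 ± 0.0250 in cKO and 0.195 ± 0.0196 in WT (exact permutation p = 0.4).

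At day 5 both receptors varied within groups. Bmpr1a was at 50.4, 177 and 76.2 CPM in cKO against 129, 48.9 and 58.8 in WT, and Bmpr1b was at 8.45, 27.6 and 14.2 in cKO against 22.1, 10.7 and 10.6 in WT. The highest library for both genes was cKO replicate 2 in one genotype and WT replicate 1 in the other, which are the libraries that stood apart together. With both left out, the day 5 log2 fold changes were 0.23 for Bmpr1a and 0.09 for Bmpr1b. The day difference of Bmpr1b was 1.48 ± 0.60 (edgeR, Benjamini-Hochberg adjusted p = 0.203), and it was called without day 5 cKO replicate 2 (2.05, adjusted p = 0.0216) and without both libraries (1.60, adjusted p = 0.00863). That of Bmpr1a was 0.53 ± 0.68 (adjusted p = 0.729, edgeR, Benjamini-Hochberg).

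Of 10 other receptors and co-receptors, 9 were listed and 8 tested at day 9. Of these, 4 were higher and 1 lower, beside 43.6% called of all genes, and the median log2 fold change was 0.48. Among the type II receptors, which phosphorylate the type I receptors, Acvr2a was at 12.5 ± 2.72 CPM in cKO and 4.88 ± 1.94 in WT, and Bmpr2 at 57.7 ± 16.8 and 18.6 ± 9.27. Neo1, which encodes neogenin, a receptor for the BMP co-receptors of the RGM family, rose by a log2 fold change of 0.45 ± 0.12, though it lay at -0.40 on TPM rescaled without the 10 structural features. Eng, a co-receptor known from endothelium, fell to 0.107 ± 0.0715 CPM in cKO against 0.653 ± 0.0946 in WT. Its cKO mean lies under the level of 3 counts in cKO replicates 1 and 3 (0.468 and 0.422 CPM). The WT mean lies above it, so the size of the fall is loosely fixed. The endothelial marker Cdh5 was at 0 in all 6 libraries of day 9, and the 7 endothelial markers summed to 3.27 to 3.94 CPM in cKO and 3.14 to 3.87 in WT. The calls of Bmpr2 and Neo1 ended in 8 and 6 of 17 other settings, besides the 3 settings that turned Neo1 round.

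The inhibitors did not move together at day 9. Smad7 encodes an inhibitory SMAD that blocks BMP and TGF-beta receptors and is itself induced by their signalling; its gene lies on chromosome 18 from 75367529 to 75395935 (forward strand). It was at 5.77, 3.65 and 5.21 CPM in cKO against 1.92, 1.86 and 2.30 in WT, from 37, 145 and 37 counts against 68, 52 and 79. All cKO libraries were above all WT libraries, and cKO replicate 2, the deepest of the 3, was the lowest of them. The rise was 2.36-fold (log2 fold change 1.24 ± 0.25, edgeR, Benjamini-Hochberg adjusted p = 0.00655). With cKO replicate 2 as the only cKO library it was 0.81 on the log2 scale and was not called (adjusted p = 0.0897). The day difference was 1.21 ± 0.41 (edgeR, Benjamini-Hochberg adjusted p = 0.123), and was called without day 5 cKO replicate 2 (1.55, adjusted p = 0.0186).

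Smad6, the inhibitory SMAD more specific to BMP receptors, lies on chromosome 9 from 63953076 to 64022059 (reverse strand) and was near the detection limit. At day 9 it had 0, 4 and 0 counts in cKO against 5, 3 and 4 in WT. Since 3 counts equal 0.468 and 0.422 CPM in cKO replicates 1 and 3, their values of 0 lie under a floor that is above every WT value (0.108 to 0.141 CPM), and no difference was detectable. The ratio of summed counts per effective library was 0.611, with a 95% Poisson interval of 0.144 to 2.02. At day 5 there were 0, 3 and 1 counts in cKO against 2, 3 and 5 in WT (ratio 0.462, interval 0.106 to 1.60).

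Bambi encodes a pseudoreceptor that resembles a type I receptor but lacks a kinase, and it lies on chromosome 18 from 3507923 to 3516404 (forward strand). At day 9 it was at 0.779, 0.478 and 1.13 CPM in cKO against 1.21, 1.69 and 1.54 in WT, from 5, 19 and 8 counts against 43, 47 and 53. The cKO values all lay below those in WT, with cKO replicate 3 close to WT replicate 1. The log2 fold change of -1.02 ± 0.42 did not pass (edgeR, Benjamini-Hochberg adjusted p = 0.0771). It passed with limma-voom (adjusted p = 0.0380) and with limma on log2(TPM + 0.1) (adjusted p = 0.0499), both Benjamini-Hochberg adjusted. With cKO replicate 2, which held 19 counts, as the only cKO library the value was -1.65. At day 5 Bambi was at 6.50, 3.72 and 6.07 CPM in cKO and 3.24, 5.54 and 5.06 in WT.

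**Figure D2:**
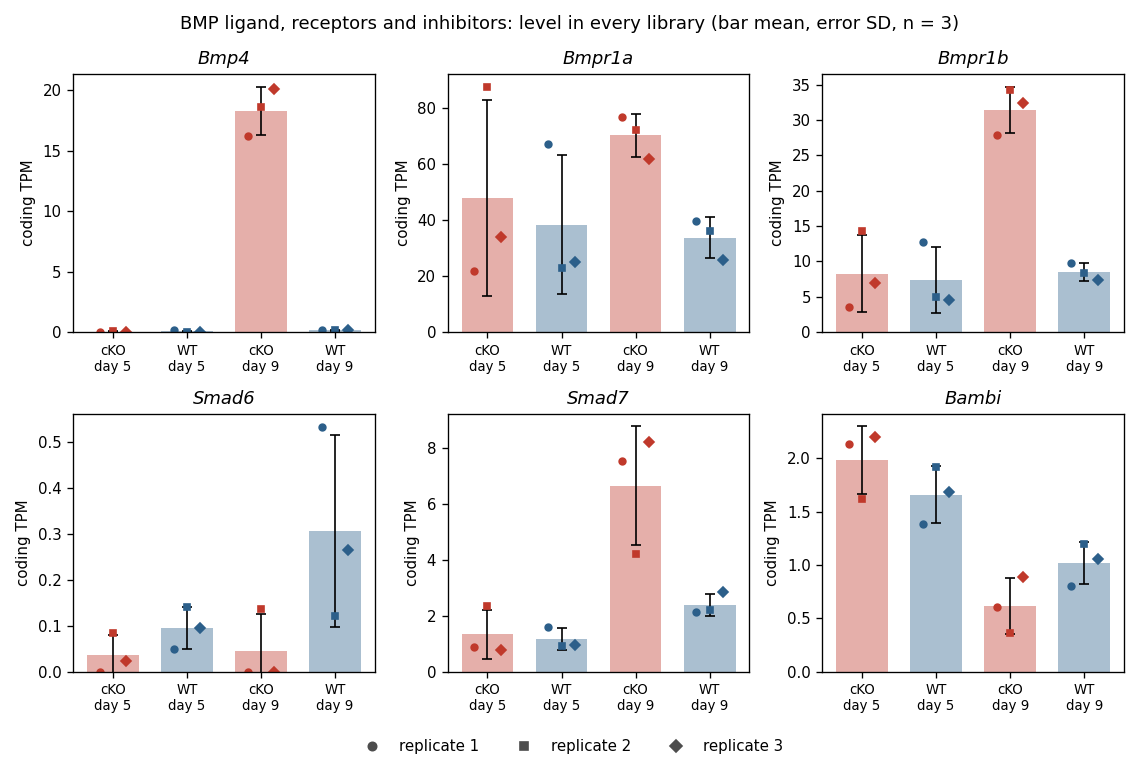
Coding TPM (TPM rescaled to a fixed total over protein-coding genes) of the ligand, receptors and inhibitors in each library, cKO left of WT at each day; bars are means, error bars SD, and symbols the 3 replicates. Bmp4 reaches 16.2 to 20.1 in the day 9 cKO libraries and is at most 0.183 in the other groups, and the day 5 values of Bmpr1a and Bmpr1b spread widely within both genotypes.

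The ID genes did not change as a block at day 9: Id4 and Id2 rose, Id3 fell, and Id1 did not pass. Id4, on chromosome 13 from 48261228 to 48266026 (forward strand), was at 32.3, 44.6 and 31.4 CPM in cKO against 6.55, 4.52 and 7.33 in WT. The lowest cKO library was over 4 times the highest WT library. The rise was 5.90-fold (log2 fold change 2.56 ± 0.22, edgeR, Benjamini-Hochberg adjusted p = 0.000117). It held without any 1 library, and cKO replicate 2 alone against the 3 WT libraries gave 2.83. At day 5 Id4 was at 2.55, 2.52 and 2.29 CPM in cKO and 2.81, 2.16 and 2.41 in WT. The day difference passed (2.56 ± 0.33, edgeR, Benjamini-Hochberg adjusted p = 0.000797) and held without any 1 of the 12 libraries.

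Id2, on chromosome 12 from 25093799 to 25097140 (reverse strand), was at 83.6, 110 and 80.2 CPM in cKO against 50.9, 50.1 and 58.8 in WT at day 9. The groups did not overlap, and cKO replicate 2 was the highest. The rise was 1.72-fold (log2 fold change 0.78 ± 0.14, edgeR, Benjamini-Hochberg adjusted p = 0.00370), but on TPM rescaled without the 10 structural features the value was -0.10, where the median of all genes was itself at -0.69. On coding TPM it was 0.97 (limma, Benjamini-Hochberg adjusted p = 0.00226). At day 5 Id2 was at 76.9, 55.9 and 84.6 CPM in cKO and 85.9, 64.6 and 71.8 in WT, and the day difference of 0.82 ± 0.28 did not pass (edgeR, Benjamini-Hochberg adjusted p = 0.119).

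Id3, on chromosome 4 from 136143497 to 136145755 (forward strand), was at 44.7, 65.4 and 51.8 CPM in cKO against 103, 82.3 and 92.0 in WT at day 9. Here every cKO library was below every WT library. The fall was 1.70-fold (log2 fold change -0.77 ± 0.15, edgeR, Benjamini-Hochberg adjusted p = 0.00581). With cKO replicate 2 as the only cKO library it was -0.53 and was not called (adjusted p = 0.0679). At day 5 Id3 was at 107, 52.4 and 97.8 CPM in cKO and 70.4, 114 and 131 in WT, with overlap, and the day difference was -0.48 ± 0.41 (edgeR, Benjamini-Hochberg adjusted p = 0.587).

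Id1, on chromosome 2 from 152736251 to 152737410 (forward strand), was at 13.3, 15.3 and 11.8 CPM in cKO against 15.1, 11.8 and 14.9 in WT at day 9, with full overlap. Its log2 fold change was -0.04 ± 0.16 (edgeR, Benjamini-Hochberg adjusted p = 0.844), a small value whose sign turned in some settings. At day 5 it was at 12.3, 7.19 and 15.4 CPM in cKO and 9.74, 16.1 and 18.9 in WT.

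**Figure D3:**
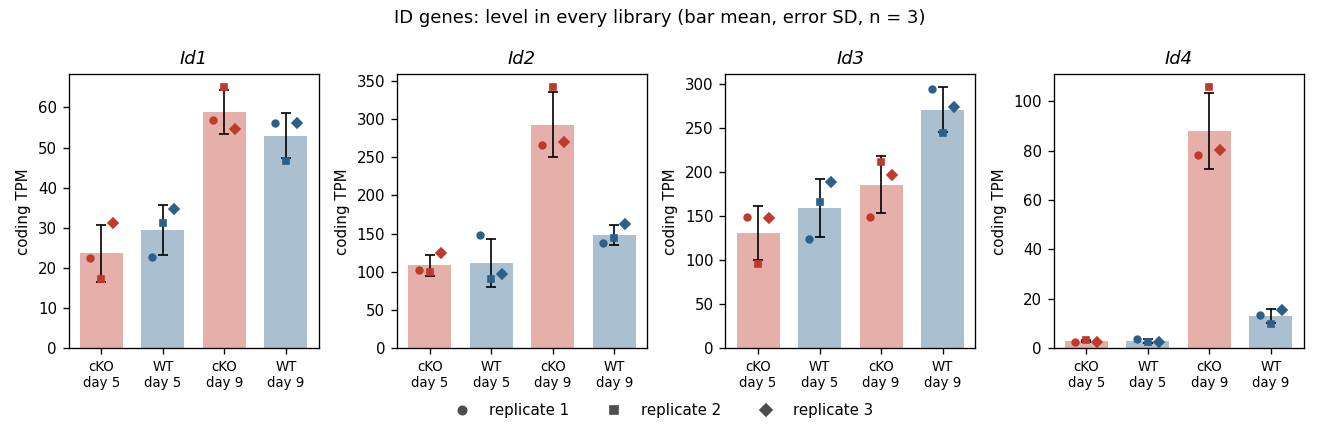
Coding TPM of Id1, Id2, Id3 and Id4 in each library, cKO left of WT at each day; bars are means, error bars SD, and symbols the 3 replicates. At day 9 Id4 lies at 78.0 to 106 in cKO against 9.87 to 15.4 in WT, and Id3 at 149 to 211 in cKO against 245 to 295 in WT.

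The promoter windows of the 3 ID genes that changed are given because these genes are known targets of the same SMADs and moved in different directions. They follow the same convention, with capitals also marking GGCGCC. The windows are chr13:48260866-48261165 (forward strand) for Id4, chr12:25096043-25096342 (reverse strand) for Id2 and chr4:136143572-136143871 (forward strand) for Id3, all GRCm38.p6. Those of Id2 and Id3 lie inside the outermost GENCODE bounds of their genes, since that annotation also holds starts further upstream. That of Id4 lies wholly upstream of the GENCODE gene, which starts at 48261228.
Id4: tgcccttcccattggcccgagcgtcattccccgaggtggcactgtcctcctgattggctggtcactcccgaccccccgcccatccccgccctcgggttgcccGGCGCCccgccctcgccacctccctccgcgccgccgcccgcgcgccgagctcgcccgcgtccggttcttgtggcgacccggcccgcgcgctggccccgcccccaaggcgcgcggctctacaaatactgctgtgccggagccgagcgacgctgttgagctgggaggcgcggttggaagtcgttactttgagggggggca
Id2: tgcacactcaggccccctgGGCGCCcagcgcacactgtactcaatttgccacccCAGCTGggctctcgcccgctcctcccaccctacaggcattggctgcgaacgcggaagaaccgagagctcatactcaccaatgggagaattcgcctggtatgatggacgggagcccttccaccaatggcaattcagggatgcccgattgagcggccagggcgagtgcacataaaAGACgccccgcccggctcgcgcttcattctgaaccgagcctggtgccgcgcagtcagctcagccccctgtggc
Id3: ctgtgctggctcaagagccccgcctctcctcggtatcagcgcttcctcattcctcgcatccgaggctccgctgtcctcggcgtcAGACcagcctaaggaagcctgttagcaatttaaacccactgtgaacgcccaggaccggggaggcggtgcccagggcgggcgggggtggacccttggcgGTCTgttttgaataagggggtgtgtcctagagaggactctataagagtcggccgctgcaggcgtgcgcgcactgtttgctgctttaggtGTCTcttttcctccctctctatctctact
GGCGCC occurred once in Id4 and once in Id2, both of which rose, and not in Id3, which fell. GTCT occurred 3 times in Id3, once in Id2 and not in Id4. An E-box was found once in Id2 and in neither of the others. The windows were 73.3% GC in Id4, 63.3% in Id2 and 60.0% in Id3, against a median of 52.7% over all promoters. With 3 genes, and motifs as common as given above, these counts are descriptions of the windows only.

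The make-up of the ID family is a comparison within each library and so does not depend on library scaling. Id4 made up 14.2%, 14.6% and 13.3% of the summed TPM of the 4 ID genes in cKO at day 9, against 2.69%, 2.22% and 3.03% in WT. The shares do depend on the measure. From expected counts, which are not corrected for length, the mean Id4 share was 18.5% in cKO and 3.67% in WT. Id3 made up 29.7% ± 2.82 in cKO and 55.8% ± 2.53 in WT, and Id2 46.8% ± 1.78 and 30.6% ± 2.75 (mean ± SD, n = 3). The share of Id1 moved least, at 9.47% ± 0.745 in cKO and 10.9% ± 0.376 in WT. None of these 4 shares overlapped between the groups, and each gave a two-sided exact permutation p = 0.1, the smallest that 3 against 3 libraries allow. The 4 shares make up the whole in each library, so they are not 4 separate results. The lower share of Id1 does not show a fall of Id1, whose CPM overlapped between the groups. At day 5 all 4 shares overlapped (exact permutation p from 0.4 to 0.6), with Id4 at 1.11% ± 0.405 in cKO and 0.928% ± 0.261 in WT. In all, 7 ratios, shares and sums were compared at each day, and since no p could go below 0.1, none could pass after adjustment.

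**Figure D4:**
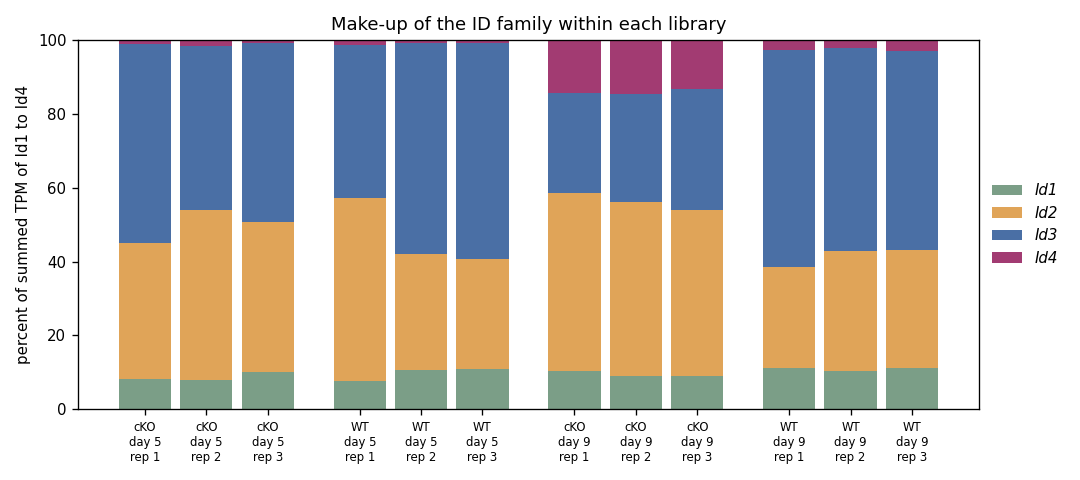
Share of each ID gene in the summed TPM of Id1 to Id4, in percent, for each of the 12 libraries, cKO left of WT at each day. Id3 is the largest share in the WT libraries of day 9 and Id2 in the cKO libraries of day 9, where Id4 takes 13.3% to 14.6%.

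In coding TPM, which is TPM rescaled to sum to 1000000 over protein-coding genes and corrects for length and so allows genes to be compared, the order of the 10 genes at day 9 also differed between genotypes. In cKO it ran Id2 (293 ± 42.6), Id3 (186 ± 32.5), Id4 (87.9 ± 15.3), Bmpr1a (70.2 ± 7.67), Id1 (58.8 ± 5.44), Bmpr1b (31.5 ± 3.25), Bmp4 (18.3 ± 1.99), Smad7 (6.66 ± 2.13), Bambi (0.617 ± 0.264) and Smad6 (0.0457 ± 0.0792). In WT it ran Id3 (271 ± 25.3), Id2 (148 ± 13.0), Id1 (53.0 ± 5.52), Bmpr1a (33.7 ± 7.17), Id4 (12.9 ± 2.82), Bmpr1b (8.49 ± 1.21), Smad7 (2.40 ± 0.395), Bambi (1.02 ± 0.199), Smad6 (0.306 ± 0.208) and Bmp4 (0.143 ± 0.0343). Neighbours whose ranges overlapped were Bmpr1a and Id1 in cKO, and Smad6 and Bmp4 in WT. The levels of Bambi overlapped between the genotypes on this scale. At day 5 the order was the same in cKO and WT: Id3, Id2, Bmpr1a, Id1, Bmpr1b, Id4, Bambi, Smad7, Smad6 and Bmp4. There Id3 and Id2, Bmpr1a and Id1, Bambi and Smad7, and Smad6 and Bmp4 overlapped in both genotypes. No level is set against one of the other day, because each day had tables of its own and the effects of the 2 cannot be told apart.

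The summed coding TPM of the 4 ID genes was 550, 724 and 601 in cKO against 503, 445 and 509 in WT at day 9 (two-sided exact permutation p = 0.1, the smallest possible). The groups did not overlap on this scale, but the gap between the nearest libraries was small. On this scale the median log2 fold change of all genes was itself at 0.19, with 3878 genes called higher and 1954 lower. Added up in CPM, which is not corrected for length, the same 4 genes overlapped between the groups. A higher total of ID transcripts in cKO is therefore not shown. At day 5 the sums were 277, 215 and 306 in cKO and 298, 290 and 322 in WT (exact permutation p = 0.3).

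The 12-library fit asks whether the genotype difference itself changed between day 5 and day 9. Of the 9 genes tested, Id4 and Bmp4 passed, both more positive at day 9, where 7.71% of all 15323 genes were called, 2.57% more positive and 5.14% more negative. The median over the 9 genes was 0.82 on the log2 scale, against -0.00 over all genes. For Id2, Id3, Bmpr1a, Bmpr1b and Smad7, which were called at day 9 and not at day 5, the difference between days did not pass. In that fit the day 9 change is therefore not shown to differ from that at day 5 for those 5 genes. In limma on coding TPM 3 of the 9 were called, the third being Id2 (0.98, Benjamini-Hochberg adjusted p = 0.0457). There 632 of all 15323 genes were called more positive and 619 more negative. Without day 5 cKO replicate 2, the library with 14.1% structural RNA, 4 were called in edgeR: Id4, Bmp4, Bmpr1b and Smad7. Calls over all genes rose too, to 1176 more positive and 1234 more negative of 15585 tested.

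Genes whose pattern was most like that of each ID gene were ranked by the root mean square distance, in log2 CPM relative to the WT mean of the day, over the 12 libraries. The 9284 candidate genes had a mean of at least 5 CPM at each day, and Gm-numbered, Rik and pseudogene symbols were left out. Id4 was most like Cyfip2 (distance 0.226), Sparcl1 (0.246) and Nfasc (0.248), which had day 9 log2 fold changes of 2.21, 2.20 and 2.67. Id3 was most like Ndufaf3 (0.085), Ndufs3 (0.089) and Cox8a (0.093), which encode mitochondrial respiratory chain subunits or an assembly factor, with day 9 values of -0.80, -0.85 and -0.78. The nearest to Id2 were Cyp2j9 (0.137), Sept8 (0.140) and Mllt11 (0.146), and the nearest to Id1 were Fabp5 (0.147), Mif (0.157) and D10Jhu81e (0.160). No gene came as close to Id4 as those near the other ID genes did. The distance is not scaled by the size of a change, and Id4 had the largest change of the ID genes. It was also at only 2.16 to 2.81 CPM at day 5, so its larger distances do not show a distinctive pattern.

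Of the 6 SMAD transcription factors tested at day 9, 1 was higher and 1 was lower, beside 43.6% called of all genes, and Smad1, Smad2, Smad3 and Smad4 had log2 fold changes between -0.07 and 0.02. Smad9, a receptor-activated SMAD of the BMP branch, was at 8.51 ± 0.809 CPM in cKO and 2.40 ± 0.218 in WT (log2 fold change 1.83 ± 0.18, edgeR, Benjamini-Hochberg adjusted p = 0.000196). Smad5, of the same branch, fell to 91.1 ± 3.63 CPM in cKO against 126 ± 24.8 in WT (log2 fold change -0.47 ± 0.14, edgeR, Benjamini-Hochberg adjusted p = 0.0289), a call that ended in 8 of 17 other settings.

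Among the extracellular antagonists, which bind ligands, 8 of 15 were tested at day 9. Of these, 1 was higher and 2 lower (median log2 fold change -0.07), beside 43.6% called of all genes. Chrdl1, chordin-like 1, fell to 3.44 ± 1.29 CPM in cKO against 10.8 ± 3.79 in WT. Nog, which encodes noggin, was at 2.54 ± 0.310 CPM in cKO and 1.25 ± 0.359 in WT, with a call that ended in 11 of 17 other settings. Fstl1 fell by 0.68 on the log2 scale but was at 0.26 in the fit on coding TPM, so its direction depended on the scale.

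Of 18 intracellular regulators of SMADs, all tested, 4 were higher and 3 lower at day 9 (median 0.04), beside 43.6% called of all genes. Tgif2, a corepressor that binds SMADs, fell to 3.55 ± 1.07 CPM in cKO against 17.9 ± 0.969 in WT. Skil, which encodes the SMAD corepressor SnoN, was at 20.6 ± 2.91 CPM in cKO and 6.32 ± 3.29 in WT. Smurf2, a ubiquitin ligase for SMADs and their receptors, rose by 0.45 ± 0.12 on the log2 scale, though it lay at -0.35 on TPM rescaled without the 10 structural features, and Ctdsp2, a phosphatase, fell by 0.41.

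Among 13 other genes described as responding to BMP in some tissue, 9 were tested at day 9. Of these, 1 was higher and 3 lower (median -0.09), beside 43.6% called of all genes. Hes1, a bHLH repressor that is also a Notch target, fell to 1.51 ± 0.225 CPM in cKO against 12.4 ± 2.47 in WT (log2 fold change -2.99 ± 0.22, edgeR, Benjamini-Hochberg adjusted p = 4.75e-05). Hes5, another Notch target, fell by 0.66 and Sox9, a glial and progenitor transcription factor, by 0.52 on the log2 scale, while Tcf7l1, a Wnt pathway repressor, rose by 0.91. The call of Hes5 ended in 11 of 17 other settings.

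The list of ID binding partners, namely E proteins, other bHLH factors and pocket proteins, had 12 of 15 genes tested at day 9. Of these, 5 were higher and 6 lower (median -0.01), beside 43.6% called of all genes. Neurod1, a neuronal bHLH factor, was at 0.920 ± 0.457 CPM in cKO and 0.0194 ± 0.0336 in WT. Its WT mean lies under the level of 3 counts in the WT libraries (0.0848 to 0.108 CPM), so the size of its rise is loosely fixed. Olig1, a bHLH factor of the oligodendrocyte lineage, fell to 630 ± 42.7 CPM in cKO against 1536 ± 90.0 in WT. Hes6, a bHLH factor related to Hes1, fell to 37.5 ± 3.15 CPM in cKO against 59.4 ± 7.27 in WT. All 3 E proteins, the direct partners of ID proteins, were called; they are named here after their values were seen. Tcf4 and Tcf12 rose, with log2 fold changes of 1.52 ± 0.28 and 0.80 ± 0.17, and Tcf3 fell by 0.34 ± 0.09 (edgeR, Benjamini-Hochberg adjusted p = 0.00747, 0.00646 and 0.0194, in that order).

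In the list of TGF-beta and activin genes, 11 of 14 were tested at day 9, with 2 higher and 2 lower (median 0.19). The receptor Tgfbr1 and the ligand Tgfb2 rose by 0.95 ± 0.23 and 0.91 ± 0.17 on the log2 scale. Tgfbr2, the type II receptor that pairs with Tgfbr1, fell to 0.955 ± 0.428 CPM in cKO against 3.98 ± 0.389 in WT, and the ligand Tgfb3 fell to 0.722 ± 0.226 against 2.16 ± 0.117. Over the 8 lists together, 75 of 103 listed genes were tested at day 9 and 38 were called, 19 higher and 19 lower, beside 43.6% of all genes. Of those lists 22 genes were called without cKO replicate 1, beside 4063 of all 15013 genes tested in that fit. Without WT replicate 2 it was 24, beside 4150 of all 15212. At day 5 none of 74 tested list genes was called. The day difference passed for 3 more positive and 8 more negative of 79, beside 2.57% and 5.14% of all 15323 genes.

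**Figure D5:**
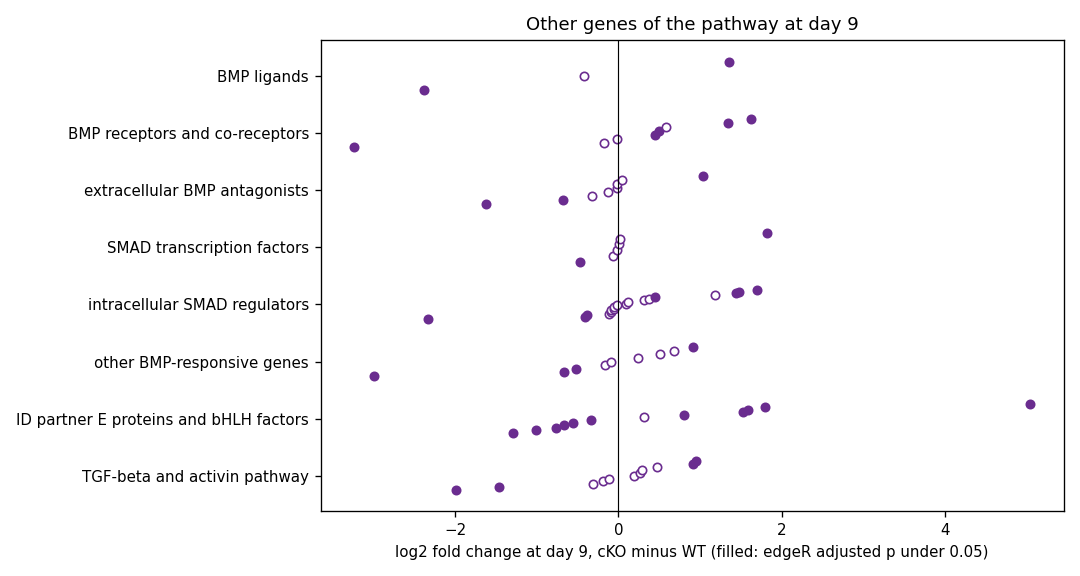
Log2 fold change at day 9, cKO minus WT, of each tested gene in 8 lists of other pathway genes, one point a gene; filled points passed an edgeR adjusted p under 0.05. Called genes lie on both sides of 0 in each list, 19 higher and 19 lower in all. The extremes are Neurod1, whose WT level is near 0, at 5.04 and Eng, whose cKO level is near 0, at -3.23.

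Marker genes of several cell types differed between the genotypes at day 9 in the same libraries. The calls among them stand beside 43.6% called of all genes. The 8 astrocyte markers summed to 3087 to 3762 CPM in cKO against 1918 to 2246 in WT, with 6 higher. The 8 neuron markers summed to 521 to 584 CPM in cKO against 127 to 293 in WT, with 5 of 7 tested higher. The 7 progenitor markers summed to 1233 to 1445 CPM in cKO against 2558 to 2942 in WT, with 1 higher and 4 lower, and one of them, Hes5, is also a list gene above. The 9 oligodendrocyte lineage markers summed to 1581 to 1910 CPM in cKO against 1042 to 1159 in WT, with 6 higher and 3 lower. The 9 mural and fibroblast markers summed to 79.6 to 101 CPM in cKO against 261 to 298 in WT. Only 3 of the 9 were tested, with 1 higher and 2 lower, and Cspg4 is also among the oligodendrocyte lineage markers. Lum was at 0 in both genotypes and Dcn in WT, so this sum does not show that such cells were present. The 8 microglia markers summed to 1.48 to 2.25 CPM in cKO and 1.16 to 1.54 in WT, with Aif1 at 0 in both. The 7 choroid plexus and ependymal markers summed to 12.2 to 15.8 CPM in cKO and 16.8 to 17.5 in WT, with 1 higher and 4 lower of 5 tested. The part of such shifts in the values of the 10 genes was not tested. In these bulk libraries a change in how many cells of a type were present and a change in RNA per cell cannot be told apart.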

How the data were processed

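Polyadenylated RNA of sorted cells was sequenced in 12 libraries. Per the file headers and the submitters' processing notes, the authors made the expected counts per gene with RSEM and Bowtie2 on mm10 before they deposited them, and the TPM values, in tables of their own, were deposited under the same RSEM column names. The annotation and strand setting were not given in the sources used here, so reads of overlapping antisense genes cannot be told apart. Expected counts were rounded and tested with edgeR 4.0.16 in R 4.3.3 (filterByExpr, TMM, robust glmQLFit, glmQLFTest, Benjamini-Hochberg over all genes tested, threshold 0.05), per day and, over 41592 shared symbols, for the day difference. The SE of a log2 fold change was its absolute value over the square root of the F statistic, and not a separate estimate. The test was checked on simulated data. Coding TPM is the deposited TPM rescaled to 1000000 over GENCODE protein-coding genes, chosen after seeing that TPM rescaled without the 10 listed structural features still held others: protein-coding genes took 13.3% to 80.3% of day 9 TPM. It was used for levels between genes. Shares used exact permutation tests (scipy 1.17.1). The alternatives were DESeq2 1.42.0, limma 3.58.1 (voom, and log2(TPM + 1) or log2(TPM + 0.1), TPM rescaled without 10 structural features), other filters and scaling, a replicate block, and each library left out; leaving out 2 libraries together and testing coding TPM were chosen after seeing the data. Promoter windows came from RefSeq (GRCm38.p6), which held 7 of the 10 genes. Named genes were the 10, Lmnb1, up to 4 called genes per list with the smallest adjusted p, the 3 genes most like each ID gene, and marker lists; a gene that this rule took is not reported here. The genes and lists were chosen with earlier results of these data known. Intervals cover counting error only.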

Additional observations from a re-analysis of the deposited data

Results flagged for a closer look

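The change between genotypes differed between day 9 and day 5, by the test of that difference in the 12-library fit (edgeR, Benjamini-Hochberg adjusted p under 0.05 over all genes), for 11 of the genes and list genes described above. It passed for 7.71% of all 15323 genes tested. Values are the day 9 change minus the day 5 change on the log2 scale. These 11 are not the same set as the 3 and 8 list genes counted earlier. Those leave out Id4 and Bmp4 and hold Sostdc1, an extracellular antagonist not tested at day 9 (-6.64, edgeR adjusted p = 0.0450). Its day 5 means were 0.978 CPM in cKO and 0.349 in WT. Id4 (2.56, adjusted p = 0.000797) and Bmp4 (7.32, adjusted p = 0.00344) were more positive at day 9 in the edgeR fit. So were the SMAD gene Smad9 (1.503, edgeR adjusted p = 0.0490), the Wnt repressor Tcf7l1 (1.18, adjusted p = 0.0293) and the neuronal factor Neurod1 (5.30, adjusted p = 0.0429). The value for Neurod1 is loosely fixed, since its day 9 WT mean lies under the level of 3 counts.

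More negative at day 9 were the ligand Bmp7 (-2.43, edgeR adjusted p = 7.93e-05), the repressor Hes1 (-3.07, adjusted p = 0.000112) and the corepressor Tgif2 (-2.36, adjusted p = 0.00301). The same held for the receptor Tgfbr2 (-2.25, edgeR adjusted p = 0.00492), the ligand Tgfb3 (-1.49, adjusted p = 0.0490), and the bHLH gene Olig1 (-1.17, adjusted p = 0.0194). At day 5 alone, Bmp4 had too few counts to be tested and the log2 fold changes of the other 10 lay between -0.27 and 0.32, none of them called. The days were deposited in separate tables, so what else differed between them cannot be told apart from time.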

How the results depend on the processing

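Many of the changes came with TPM rescaled without 10 structural features, where the median log2 fold change of all genes at day 9 was -0.69 (pseudocount 1) or -0.84 (0.1), so changes there are relative to that shift. Of the 10 genes, 1, 2 and 0 were called at day 9 on log2(TPM + 1), log2(TPM + 0.1) and log2(TPM + 1) without a filter, against 7, and 1, 1 and 1 for the day difference, against 2. All genes called at day 9 numbered 1502 (274 higher, 1228 lower), 1459 (213 and 1246) and 282 (21 and 261), against 6378 (3070 and 3308), and list genes 8, 9 and 3, against 38. On coding TPM (median shift 0.19) the split over all genes was 3878 higher and 1954 lower, and 7 of the 10 genes were called. In the 3 settings on TPM without structural features the sign turned for Id2 at day 9 (-0.10, -0.11, -0.10), Neo1 (-0.40, -0.41, -0.40), Smurf2 (-0.35, -0.38, -0.35), and, for the day difference, Id1 (-0.48, -0.50, -0.48), Id2 (-0.0060, -0.0084, -0.0060) and Bmpr1a (-0.16, -0.17, -0.16). Bmpr1a at day 9 was at -0.00089 on log2(TPM + 0.1), and Fstl1 at 0.26 on coding TPM. The cause of the remaining changes was not tested.

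Genes not called turned sign around 0. Id1 at day 9 was at 0.018 with voom, 0.15 on coding TPM and 0.10 with cKO replicate 2 as the only cKO library. Id4 at day 5 was at 0.016 without the structural features, 0.0043 with voom, 0.0032 with the replicate block, 0.023 on coding TPM and 0.083 without WT replicate 1 and cKO replicate 2; Id2 was then at 0.24. Smad7 at day 5 was at -0.036 without a filter, -0.028 with voom, -0.018 on log2(TPM + 0.1), -0.018 with the block and -0.34 without those libraries. With each library left out in turn, day 5 values ran from -0.17 to 0.11 (Id2), -0.084 to 0.10 (Id4), -0.32 to 0.21 (Smad7), -0.34 to 0.92 (Bmpr1a) and -0.38 to 0.65 (Bmpr1b), Id1 at day 9 from -0.17 to 0.035, and the day difference of Bmpr1a from -0.046 to 1.22. Members called for the day difference then ranged from 1 to 4. The 4 came without day 5 cKO replicate 2, where 1176 of all 15585 genes were called more positive and 1234 more negative.

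All genes called at day 5 were 8 with DESeq2, 0 without a filter, 2 with voom, 2, 3 and 0 in the TPM settings, 0 with the replicate block, 0 to 0 with each library left out and 19 without the 2 libraries named, against 1. At day 9, leaving out each library in turn gave 4063 to 7507 genes and 22 to 36 list genes (fewest without cKO replicate 1), and cKO replicate 2 as the only cKO library gave 3344 and 18. Same-numbered libraries did not consistently deviate together (r from -0.721 to 0.534 at day 5 and from -0.200 to -0.001 at day 9, with replicate 3 at day 5 as the one pair above 0.1), so the numbers were not taken to pair them. With the replicate block 7 of the 10 genes were called at day 9 and 1 for the day difference (Bmp4 then at adjusted p = 0.0743, edgeR). Depth limits Smad6, Bmp4 at day 5 and Bambi.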
